A study of Mus musculus with 6 samples.

Results

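Glycosaminoglycans are the long sugar chains that proteoglycans carry on cell surfaces and in the matrix, and 40 genes for their synthesis, sulfation, editing and cleavage were followed here in mouse heart. The genes were taken from a fixed list covering heparan sulfate, chondroitin sulfate and hyaluronan. The list holds enzymes and 1 receptor, the hyaluronan receptor gene Cd44. All 40 were found on the array through the transcript accession of a probe, out of 22811 genes with a symbol, and 33 gave enough signal to be tested, out of 14697 genes tested. Total RNA of whole hearts had been hybridised to 1-colour arrays, 1 array per mouse. The 3 rhTM mice were male C57BL6 mice aged 10 weeks that had fasted for 16 h, had received 20 mg/kg lipopolysaccharide (LPS, bacterial endotoxin) into the peritoneum, and were given rhTM (recombinant human thrombomodulin, made from an endothelial thrombin receptor) at 3 and 24 h. The 3 saline mice differed from them in receiving saline at these times, and all hearts were taken at 30 h. Both groups carry fasting and LPS, so each value compares rhTM with saline after LPS, and no heart without LPS was analysed here. The labels name separate mice but no litter or day of treatment.

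Heparan and chondroitin sulfate share their start. A xylose is put on a serine of the core protein, further sugars complete a short linker, and the next sugar decides which chain is built. The chain is then lengthened by copolymerases and decorated with sulfate groups, while hyaluronan is made at the plasma membrane without a core protein. In vessels these chains form much of the endothelial glycocalyx, which holds antithrombin and other plasma proteins and is known to be shed in endotoxemia.

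The level of a gene is given as log2 of its processed signal minus the log2 of the array's 75th percentile, and the change is the rhTM mean minus the saline mean with the SE of the fit. Levels of different genes come from different probes and are not set against each other. The 75th percentile of the signal was 412 to 466 on the rhTM arrays and 394 to 732 on the saline arrays, and 54.8% to 62.8% of 59305 spots per array were well above background. Saline 1 and 2 were on slide 1, while saline 3 shared slide 2 and its scan with all rhTM arrays. Across all genes tested, rhTM 1 and 2 correlated at 0.994 and rhTM 3 with them at 0.969 and 0.970, while saline 1 and 2 correlated at 0.988 and saline 3 with them at 0.942 and 0.939. Saline 3 and rhTM 3 thus stand apart from the other arrays of their groups, and they correlated with each other at 0.965. A fit with slide as a term gives a gene's rhTM mean minus its level in saline 3, so this within-slide value rests on 1 saline array. Its p-value takes its spread from the rhTM arrays and from saline 1 against saline 2, and none from saline 3.

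No member passed the test. By limma, at an adjusted p under 0.05 over all genes tested, 0 of the 33 members were called higher and 0 lower, where 2.77% of all genes were called higher and 2.43% lower (5.2% in either direction). At an unadjusted p under 0.05, 3 members lay higher and 8 lower, against a background of 15.1% and 15.6% of all genes. The median change of the 33 was -0.21, against 0.01 for all genes tested. Of the members 12 were above 0 and 21 below, where 7232 of all 14697 genes tested lay below 0. Groups did not overlap for 3 members that were higher in rhTM hearts and 10 that were lower, which is 9.09% and 30.3% of the members, where the background was 17% and 18.7%. The 95% interval of a member's change had a median half-width of 0.68 log2 units (range 0.39 to 1.58). It is not adjusted for the number of genes tested. The 3 and 8 members at an unadjusted p under 0.05 exceeded their own half-width and still did not pass. With 3 arrays against 3, a call thus needed a larger change than the half-width. In whole hearts, fewer cells of a type and less RNA per cell cannot be told apart.

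The 4 members with the smallest p all lay lower in rhTM hearts. They were Chst11, a chondroitin 4-O-sulfotransferase, Has1, a hyaluronan synthase, Ndst2, which removes acetyl groups from heparan sulfate and adds sulfate in their place, and Hyal2, a hyaluronidase anchored to the cell surface. Their upstream windows are shown because these genes come nearest to passing the test. Each is the 250 bases before the RefSeq start on build GRCm38.p6, read 5′ to 3′ on the gene's strand, with matches to any of 6 searched motifs in capitals.
Chst11, chr10:82985247-82985496, plus strand: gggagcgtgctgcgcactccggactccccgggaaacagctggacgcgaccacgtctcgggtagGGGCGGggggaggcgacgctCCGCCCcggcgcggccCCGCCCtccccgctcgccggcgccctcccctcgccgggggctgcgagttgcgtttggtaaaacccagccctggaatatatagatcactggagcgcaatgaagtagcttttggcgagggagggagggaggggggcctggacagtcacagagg
Has1, chr17:17855189-17855438, minus strand: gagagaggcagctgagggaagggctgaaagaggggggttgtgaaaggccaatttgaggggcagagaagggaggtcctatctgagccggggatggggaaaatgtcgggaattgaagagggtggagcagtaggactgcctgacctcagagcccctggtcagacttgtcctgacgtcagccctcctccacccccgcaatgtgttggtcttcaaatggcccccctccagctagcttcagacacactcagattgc
Ndst2, chr14:20734563-20734812, minus strand: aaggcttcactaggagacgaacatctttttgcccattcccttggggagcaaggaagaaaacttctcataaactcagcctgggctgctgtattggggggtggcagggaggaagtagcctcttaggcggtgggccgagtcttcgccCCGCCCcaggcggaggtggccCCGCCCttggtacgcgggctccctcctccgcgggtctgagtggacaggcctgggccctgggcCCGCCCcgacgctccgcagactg
Hyal2, chr9:107568913-107569162, plus strand: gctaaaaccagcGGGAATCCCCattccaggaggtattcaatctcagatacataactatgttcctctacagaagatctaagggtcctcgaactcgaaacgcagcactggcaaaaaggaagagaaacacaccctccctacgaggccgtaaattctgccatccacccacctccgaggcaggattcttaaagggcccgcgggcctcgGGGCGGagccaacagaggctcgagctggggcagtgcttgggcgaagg

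The windows of Chst11 and Ndst2 each hold 3 GC boxes (GGGCGG, either strand), that of Hyal2 holds 1 GC box and 1 match to the NF-kB consensus, and that of Has1 holds none of the motifs. Windows were given for 31 of the 40 members, 37 windows in all. A GC box was in 22 of the 37 windows (59.5%), against 32.7% of all 32851 windows of the same length, and the median GC content was 63.2% in the members' windows and 52.4% in all. The NF-kB consensus was in 2 of the 37 (5.41%, Hyal2 and Ust), against 5.0% of all windows. The other searched motifs were the TATA box (TATAAA), the E-box (CACGTG), the AP-1 site (TGANTCA) and the STAT site (TTCNNNGAA). They were in 2, 3, 1 and 0 of the 37 windows, against 12.4%, 6.02%, 6.75% and 7.02% of all windows. A match is a description of the letters and not a site of binding.

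Chondroitin sulfate enzymes mostly lay lower in rhTM hearts, without a call. Chst11 lay at -3.94, -3.98 and -3.20 in rhTM 1, 2 and 3, against -2.42, -2.39 and -1.44 in saline 1, 2 and 3. Every rhTM array was below every saline array, and in both groups mouse 3 was the highest. The change was -1.63 ± 0.36 (3.09-fold lower in rhTM hearts, limma adjusted p = 0.0528), just outside the threshold. It passed in the fit blocked on the replicate number (limma adjusted p = 0.0389, where 1.65% of all genes were called lower and 4.08% in either direction), and within the slide (-2.27 ± 0.35, adjusted p = 0.0334). A second, dimmer Chst11 probe, well above background on 3 of 6 arrays, differed by -0.75, and the mean of both probes did not pass (-1.19, adjusted p = 0.218).

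Of the 4 genes that start and lengthen chondroitin chains, 3 lay lower with groups apart, where 18.7% of all genes did, and 0 passed. Chsy1, a chondroitin synthase, lay at 0.72, 0.67 and 0.92 in rhTM hearts, against 1.42, 1.21 and 2.06 in saline hearts. The change was -0.80 ± 0.26 (adjusted p = 0.110), and within the slide, where saline 3 is the highest array, it passed (-1.29 ± 0.20, adjusted p = 0.0325). Csgalnact1, which adds the first galactosamine of the chain, lay at -1.87, -1.92 and -1.26 in rhTM hearts, against -1.03, -1.14 and -0.30 in saline hearts. The rhTM 3 array was only slightly below saline 2, and the change was -0.86 ± 0.31 (adjusted p = 0.127; within the slide -1.38, adjusted p = 0.0621). Chpf, the partner of the synthase in polymerisation, lay at 1.81, 2.05 and 2.35 in rhTM hearts, against 3.21, 3.60 and 2.43 in saline hearts. Here saline 3 sat just above rhTM 3, and the change of -1.01 ± 0.33 (adjusted p = 0.111) shrank to -0.36 within the slide (adjusted p = 0.419). The paralogue Csgalnact2 differed by 0.18 ± 0.36 (adjusted p = 0.745) and by -0.59 within the slide, so that it took the other sign there. Over the 4 genes the median change was -0.83.

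Of the sulfotransferases for chondroitin and related chains, Chst11 included, 4 of 5 tested lay lower and 0 passed. Of all 14697 genes tested, 7232 lay below 0, and within the slide 3 of the 5 took the other sign. Chst3, which sulfates chondroitin at the 6 position, lay at -3.83, -4.11 and -3.61 in rhTM hearts, against -2.29, -2.07 and -4.07 in saline hearts. Saline 3, not well above background for this probe, fell among the rhTM arrays, and the change of -1.04 ± 0.53 (adjusted p = 0.228) became 0.22 within the slide. Chst12, Chst15 and the keratan sulfate enzyme Chst1 differed by 0.17, -0.25 and -0.17 (adjusted p 0.512 to 0.760). Chst2, a sulfotransferase that helps form L-selectin ligands, was not tested, since its probe was well above background on 1 of 3 rhTM and 2 of 3 saline arrays. Its level was 0.32 in saline 3, against -5.36 to -4.38 on the rhTM arrays and -4.84 and -4.57 in saline 1 and 2, so that saline 3 alone stood out. Ust, which sulfates uronic acid, was also not tested and lay at -4.47, -4.69 and -4.87 in rhTM hearts, against -5.02, -5.35 and -3.53 in saline hearts.

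**Figure D1:**
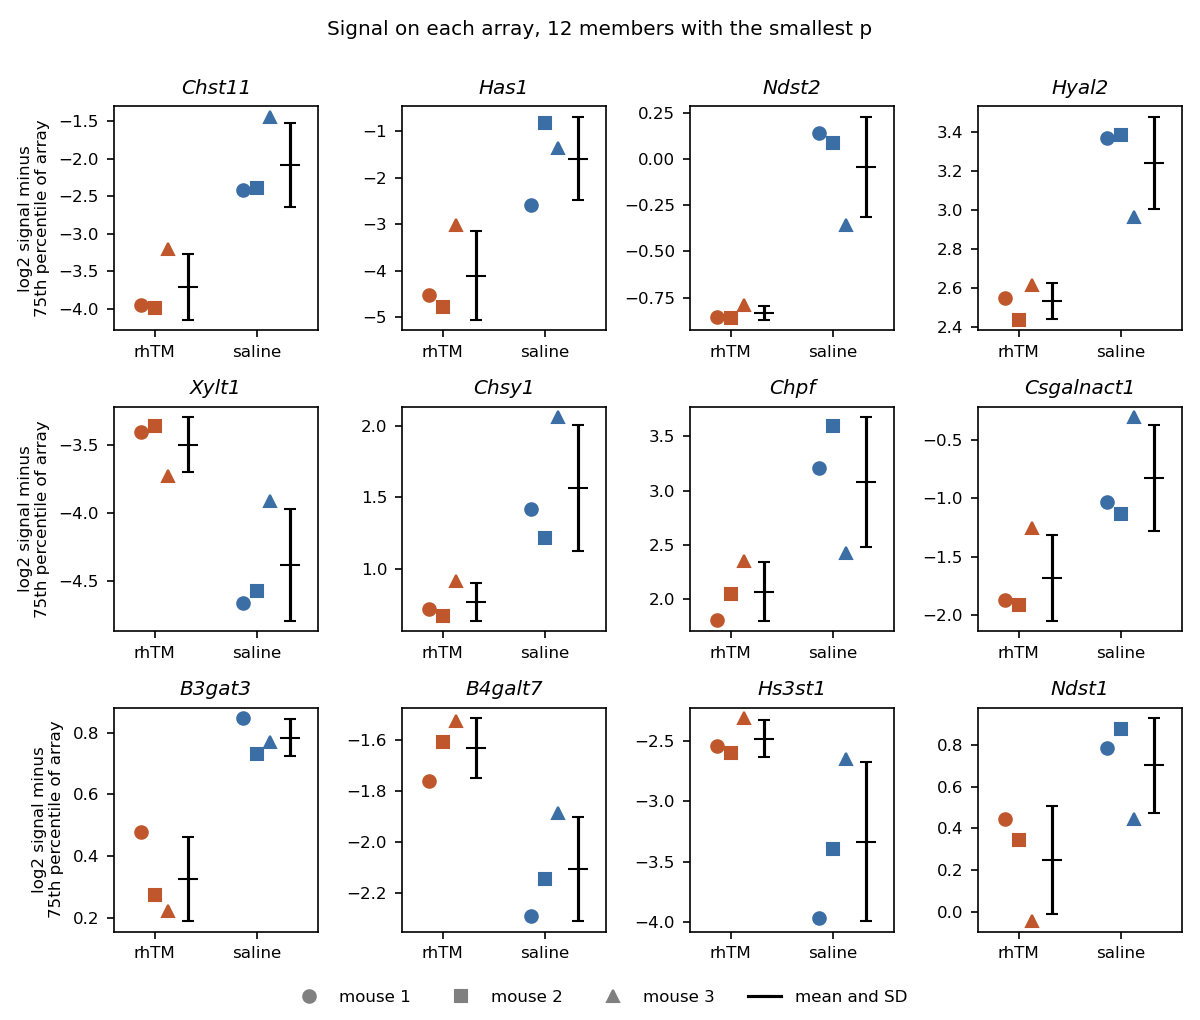
Level (log2 scale, relative to the array's 75th percentile) of the 12 members with the smallest p on each array, with rhTM hearts at left and saline hearts at right in each panel, a marker per mouse, and the mean and SD (n = 3). The groups do not overlap in any panel except that of Ndst1, and the triangle of saline 3 often lies away from the other saline arrays, as in Chpf, where it is at 2.43 against 3.21 and 3.60.

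Hyaluronan genes included the member with the largest change of the 33. Has1 lay at -4.52, -4.78 and -3.01 in rhTM hearts, against -2.58, -0.82 and -1.35 in saline hearts. Its probe was well above background on 2 of 3 rhTM and all saline arrays, the exception being rhTM 2. All rhTM arrays were below all saline arrays, and rhTM 3 came nearest to saline 1. The change was -2.52 ± 0.61 (5.73-fold lower in rhTM hearts), with a 95% interval of -3.98 to -1.05, and did not pass (limma adjusted p = 0.0644; within the slide -2.75 ± 0.93, adjusted p = 0.123). Leaving out saline 3 alone brought it past the threshold (-2.40, adjusted p = 0.0498). In that fit all saline arrays are on slide 1 and all rhTM arrays on slide 2, and 2806 of 14697 genes were called lower. Leaving out rhTM 3 did so too (-3.07, adjusted p = 0.0421), where 512 genes were called lower.

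Has2, the hyaluronan synthase that the mouse heart needs during development, showed how much the comparison turned on saline 3. It lay at -3.15, -3.35 and -3.24 in rhTM hearts, against -4.25, -3.80 and -2.03 in saline hearts. The rhTM arrays lay close together between saline 1 and 2 below them and saline 3 above them. The change was 0.12 ± 0.55 (adjusted p = 0.903), against -1.22 ± 0.23 within the slide (adjusted p = 0.0494) and 0.78 without mouse 3 of either group (adjusted p = 0.0322, where 26.8% of all genes were called higher). The call therefore changed sign with the saline arrays used. No array detected Has3 well above background.

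Hyaluronidases and the receptor followed different patterns. Hyal2 lay at 2.55, 2.43 and 2.61 in rhTM hearts, against 3.37, 3.39 and 2.97 in saline hearts, with groups apart. The change was -0.71 ± 0.20 (adjusted p = 0.0812), and -0.43 within the slide (adjusted p = 0.157). Hyal1, which cleaves hyaluronan in lysosomes, lay at -2.22, -2.27 and -2.67 in rhTM hearts, against -1.64, -1.87 and -3.99 in saline hearts. Saline 3 was the lowest of the 6 arrays, saline 1 and 2 the highest, and the change of 0.11 ± 0.61 (adjusted p = 0.913) stood at 1.602 ± 0.247 within the slide (adjusted p = 0.0334, where 3.83% of all genes were called higher) and at -0.49 without mouse 3 of either group (adjusted p = 0.0380, where 26.3% were called lower). Hyal1 thus mirrored Has2, with opposite signs in the same fits.

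Cd44 lay at -0.23, -0.29 and 1.04 in rhTM hearts, against -0.86, -0.23 and 1.47 in saline hearts. Mouse 3 was high in both groups, and the change was 0.05 ± 0.66 (adjusted p = 0.966). Its 2 bright probes disagreed, since the second lay at -2.26, -2.22 and -0.69 in rhTM hearts, against -1.58, -0.83 and 0.05 in saline hearts, a difference of -0.94. Neutrophil markers also differed between the arrays, and neutrophils carry Cd44. Of the 5 neutrophil markers with a named probe, 4 lay lower in rhTM hearts, 0 passed, and none was at background on all arrays. In the fit blocked on the replicate number 1 was called lower, where 1.65% of all genes were. Their summed level ranged from 6.41 to 8.92 in rhTM hearts and from 7.06 to 10.0 in saline hearts, and it was highest in mouse 3 of each group. The low end of this sum was set by Csf3r, which alone lay at 6.37 in rhTM 2. Csf3r varied little, from 6.19 to 6.60 over all arrays, so the sum understates the spread of other markers. S100a9 ranged from 0.28 to 7.996 in rhTM hearts and from 5.30 to 9.15 in saline hearts. The part of neutrophils in the Cd44 values was not tested.

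Of the linker and precursor genes 2 lay higher and 3 lower, and 0 of 5 passed. Xylt1, which puts the first xylose on the core protein, lay at -3.40, -3.36 and -3.73 in rhTM hearts, against -4.66, -4.57 and -3.91 in saline hearts. It was the highest change among the 33 members tested (0.88 ± 0.26, 1.85-fold higher in rhTM hearts, adjusted p = 0.0901), with groups apart, and 0.41 within the slide (adjusted p = 0.246). Its paralogue Xylt2 differed by -0.08 ± 0.23 (adjusted p = 0.838), with a dimmer probe at -0.75. B4galt7, which adds the next sugar, a galactose, lay at -1.76, -1.61 and -1.53 in rhTM hearts, against -2.29, -2.15 and -1.89 in saline hearts (0.48 ± 0.19, adjusted p = 0.153). B3gat3, which completes the linker with glucuronic acid, lay at 0.48, 0.27 and 0.22 in rhTM hearts, against 0.85, 0.73 and 0.77 in saline hearts. These 2 genes had groups apart in opposite directions, and the change of B3gat3 was -0.46 ± 0.17 (adjusted p = 0.138), much the same as within the slide (-0.45).

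Ugdh, the dehydrogenase that makes UDP-glucuronate for all 3 kinds of chain, lay at 0.99, 0.94 and 1.48 in rhTM hearts, against 1.46, 1.37 and 2.68 in saline hearts. The groups overlapped narrowly through rhTM 3, and saline 3 was far above the rest. The change was -0.70 ± 0.39 (adjusted p = 0.261), and within the slide it passed (-1.54 ± 0.26, adjusted p = 0.0409, where 1.95% of all genes were called lower). The second probe of Ugdh, well above background on all arrays, lay at 0.50, 0.45 and 1.07 in rhTM hearts, against 1.67, 1.45 and 2.14 in saline hearts. By that probe, which differed by -1.08, the groups did not overlap.

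Of the enzymes that build and modify heparan sulfate, 0 of 11 tested passed. Ext1, a subunit of the copolymerase, and the related genes Extl1, Extl2 and Extl3 differed by -0.32 to 0.16 (adjusted p 0.372 to 0.956), and all 4 had groups that overlapped. Extl1 lay at -0.14, 0.02 and -0.77 in rhTM hearts, against -0.11, 0.71 and -1.35 in saline hearts, and its second probe differed by 0.19. Within the slide all 4 were above 0 (0.12 to 1.05), and none passed. Ext2, the other subunit, was well above background on 1 of 3 rhTM and 2 of 3 saline arrays and was not tested. Ndst2 lay at -0.85, -0.86 and -0.79 in rhTM hearts, against 0.14, 0.09 and -0.36 in saline hearts. The rhTM arrays were within 0.07 of each other, and the change was -0.79 ± 0.20 (1.73-fold lower in rhTM hearts, adjusted p = 0.0703; within the slide -0.48, adjusted p = 0.122).

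Ndst1, the paralogue of Ndst2, lay at 0.45, 0.34 and -0.05 in rhTM hearts, against 0.79, 0.87 and 0.44 in saline hearts. Its groups overlapped only through rhTM 1, just above saline 3, the change was -0.45 ± 0.22 (adjusted p = 0.214), and a dimmer probe differed by 1.07 in the other direction. Hs3st1, which adds the sulfate that completes the antithrombin-binding site, lay at -2.54, -2.60 and -2.31 in rhTM hearts, against -3.96, -3.39 and -2.65 in saline hearts. The groups were apart, with a change of 0.85 ± 0.34 (1.80-fold higher in rhTM hearts, adjusted p = 0.154), but saline 3 lay next to rhTM 2, and within the slide the difference was 0.17 (adjusted p = 0.707). A second Hs3st1 probe, well above background on all arrays, differed by 0.03. Hs6st1, a 6-O-sulfotransferase, lay at 3.08, 3.04 and 2.52 in rhTM hearts, against 2.30, 2.57 and 2.57 in saline hearts, so that rhTM 3 fell among the saline arrays (0.40 ± 0.22, adjusted p = 0.262).

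The remaining heparan sulfate modifiers did not pass either. The epimerase gene Glce lay at 0.04, -0.04 and 0.01 in rhTM hearts, against 0.29, 0.08 and 0.36 in saline hearts, with groups apart (-0.24 ± 0.17, adjusted p = 0.366). The 2-O-sulfotransferase gene Hs2st1 lay at -0.10, -0.09 and 0.09 in rhTM hearts, against 0.31, 0.43 and -0.21 in saline hearts (-0.21 ± 0.23, adjusted p = 0.542). A dimmer Hs2st1 probe had the other sign, at 0.52. Of the dimmer Glce probes, that well above background on 4 arrays differed by -0.30 and that above it on 2 arrays by 0.42. Hs6st2 differed by 0.20 ± 0.58 and was high in mouse 3 of each group (-3.45 in rhTM 3 and -3.31 in saline 3, against -5.14 to -4.59 in the other arrays). By their brightest probes Ndst3 and Ndst4 had no array well above background. A dimmer Ndst3 probe passed that mark on 1 rhTM array.

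Genes that edit or cut finished heparan sulfate also did not pass. The endosulfatases Sulf1 and Sulf2, which remove 6-O-sulfates outside the cell, differed by -0.50 ± 0.28 and -0.63 ± 0.36 (adjusted p 0.269 and 0.275). Sulf2 lay at 1.37, 1.40 and 1.25 in rhTM hearts, against 2.49, 2.27 and 1.15 in saline hearts, so that saline 3 was below every rhTM array. Sulf1 was at 0.49, 0.68 and 1.45 in rhTM hearts, against 1.24, 1.47 and 1.40 in saline hearts, and here it was rhTM 3 that lay among the saline arrays. Hpse, the heparanase that cleaves the chain and takes part in glycocalyx shedding, lay at -2.52, -2.08 and -1.37 in rhTM hearts, against -2.89, -2.65 and -1.86 in saline hearts. Each group was highest in mouse 3, and the change was 0.48 ± 0.39 (adjusted p = 0.424; within the slide -0.12). Hpse2, a relative without heparanase activity, had no array well above background.

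**Figure D2:**
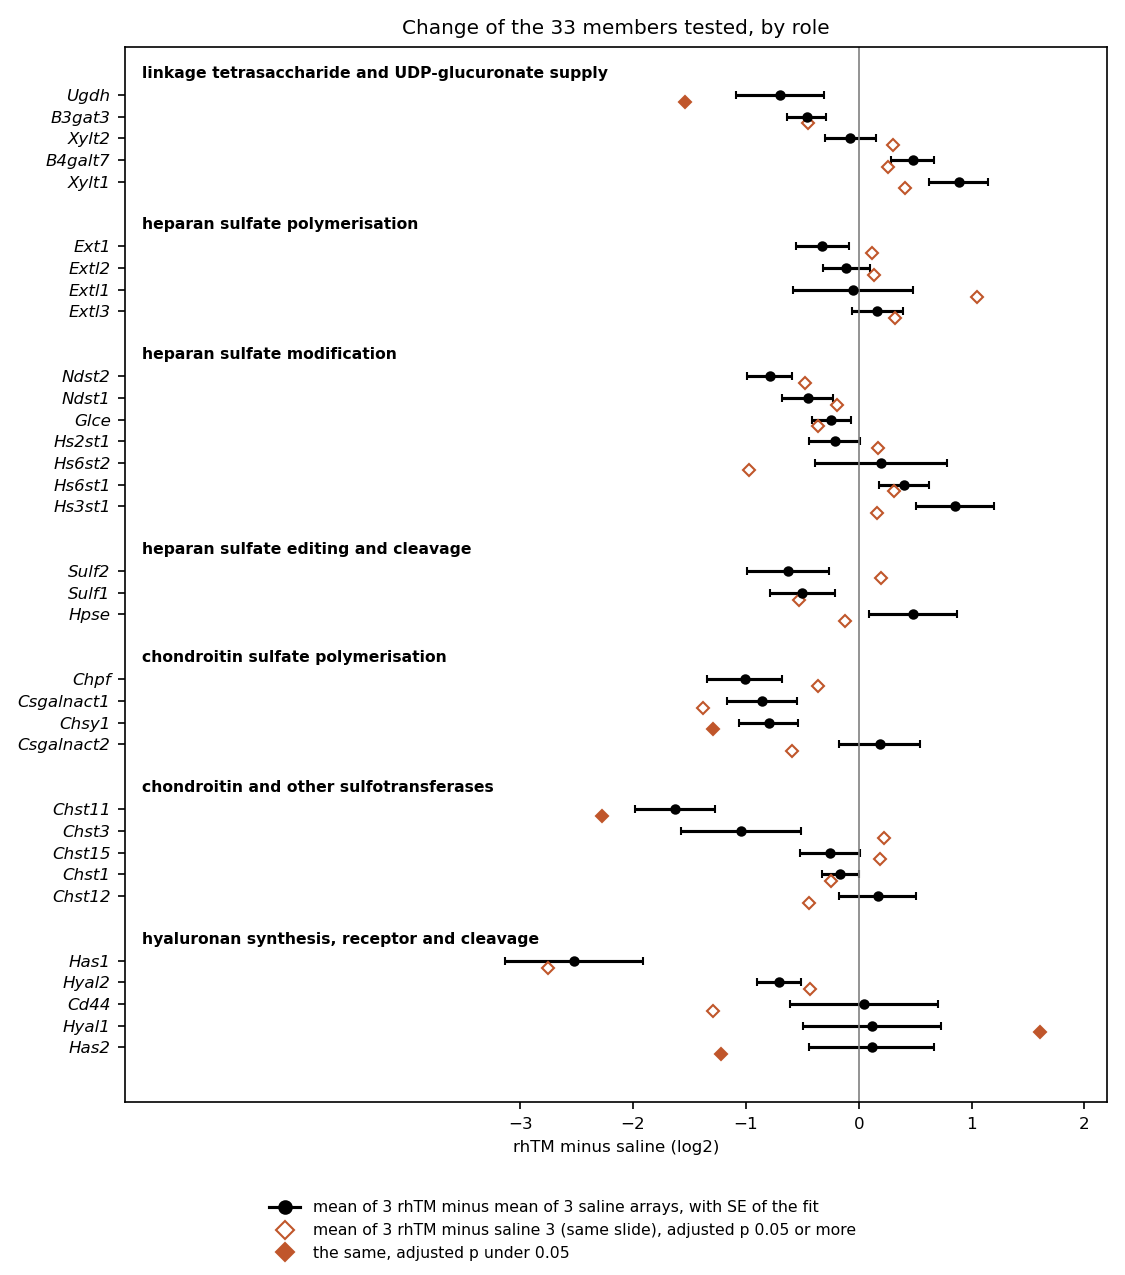
Change of the 33 members tested, rhTM minus saline on a log2 scale, grouped by role; black points with bars are the mean difference and its SE (n = 3 and 3), and diamonds the rhTM mean minus saline 3, filled at an adjusted p under 0.05. No black point passed, 5 diamonds did (Ugdh, Chsy1, Chst11, Has2 and Hyal1), and 14 members have the 2 estimates on opposite sides of 0.

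Saline 3 stood apart from saline 1 and 2 for many members. Within the saline group the range of a member over the 3 arrays had a median of 0.84, against 0.45 in the rhTM group, while the absolute change between groups had a median of 0.45. The same 3 medians over all genes tested were 0.71, 0.41 and 0.46. For 21 of the 33 members (63.6%) the saline range was wider than the change, against 68.3% of all genes. Saline 1 and 2 differed by a median of 0.16 and rhTM 1 and 2 by 0.09. Saline 3 was above the mean of saline 1 and 2 for 18 members and below it for 15. In 23 members (69.7%) saline 3 and rhTM 3 deviated from the other arrays of their group in the same direction, against 63.3% of all genes.

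Within the slide, 1 member was called higher (Hyal1) and 4 lower (Chst11, Chsy1, Ugdh and Has2), and 5.78% of all genes were called in either direction. The sign of the change was the same in both fits for 19 members and differed for 14. Without mouse 3 of either group, with 2 arrays against 2, 6 members were called higher and 15 lower, where 53.2% of all genes were called. What belongs to the mouse and what to the slide cannot be told apart for saline 3, the only saline array on slide 2.

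**Figure D3:**
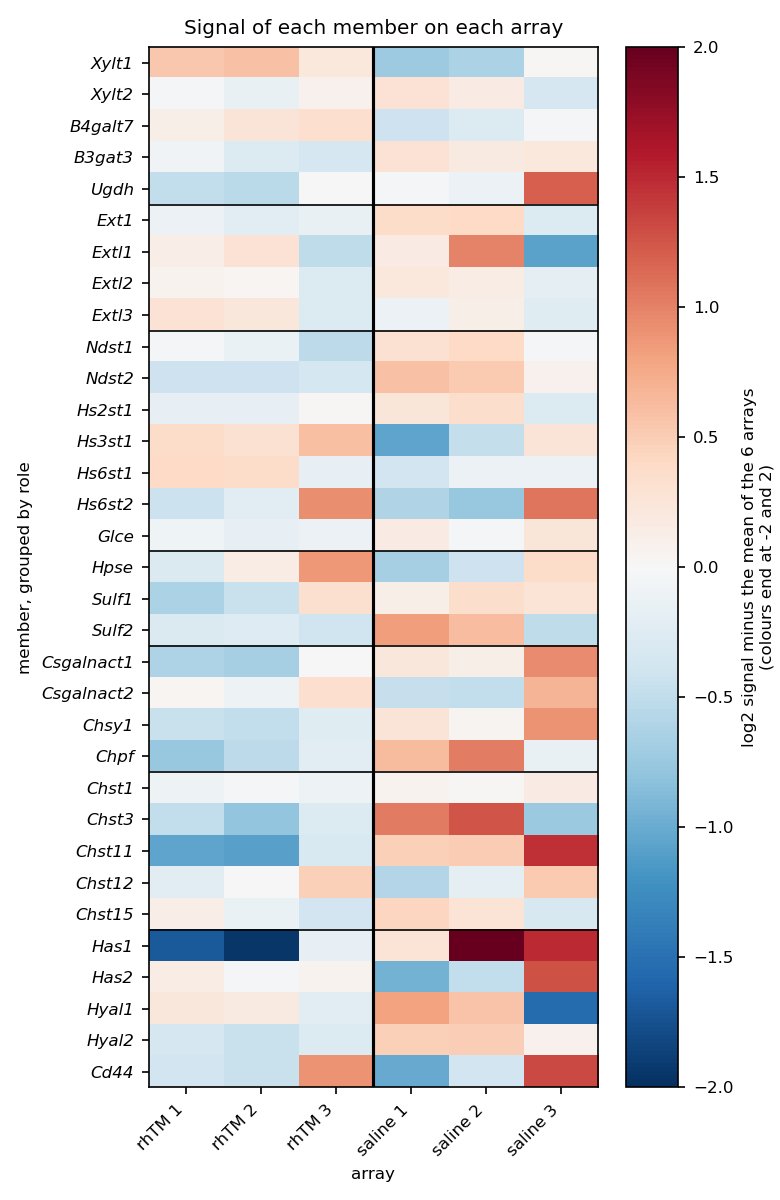
Level of each of the 33 members tested (rows, grouped by role, with lines between the groups) on each array (columns, rhTM left of the thick line and saline right of it), as log2 signal minus the mean of the 6 arrays. Saline 3 is red where the other saline arrays are blue for Has2 and Cd44, and blue where they are red for Chst3, Sulf2 and Hyal1.

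Other genes of the same pathways were taken from lists by role. Among 16 further enzymes of heparan and chondroitin assembly and sulfation, 11 were tested, 0 were called higher and 1 lower, with a median change of 0.15. The gene called was Chpf2, a relative of Chpf, at -1.54, -1.40 and -0.89 in rhTM hearts, against 0.68, 0.68 and 0.04 in saline hearts. It fell by 1.75 ± 0.28 (3.35-fold lower in rhTM hearts, limma adjusted p = 0.0330), but passed neither within the slide (-1.32, adjusted p = 0.0599) nor in the fit blocked on the replicate number (adjusted p = 0.0554). None of 4 keratan sulfate genes tested passed, the smallest p being that of B4galt1, a galactosyltransferase with wider uses (-0.79 ± 0.17, adjusted p = 0.0526; groups apart), and the next that of B3gnt2 (0.27 ± 0.28, adjusted p = 0.542).

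Precursor supply, the making and transport of UDP-sugars and of the sulfate donor PAPS, had 15 of 17 listed genes on the array with a name. Of the 15, 13 lay below 0 (median -0.30), where 7232 of all 14697 genes tested did (median 0.01). One was called, Gfpt2, an isoform of the enzyme that commits glucose to UDP-N-acetylglucosamine. It lay at -0.44, -0.49 and 0.55 in rhTM hearts, against 1.45, 1.90 and 1.38 in saline hearts, and fell by 1.71 ± 0.33 (3.27-fold lower in rhTM hearts, limma adjusted p = 0.0441). It passed neither within the slide (-1.51, adjusted p = 0.106) nor in the fit blocked on the replicate number (adjusted p = 0.0615). Within the slide 13 of the 15 were below 0, with a median of -0.93, and Uap1, which forms UDP-N-acetylglucosamine, was at -0.99. Over all 14697 genes tested, 7373 were below 0 within the slide, with a median of -0.003. The 2 medians of this list share the rhTM arrays and saline 3.

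Of the lysosomal genes for breaking the chains down, 6 of 12 tested were above 0 and 6 below, and 0 passed. With groups apart, 4 of the 12 lay higher and 1 lower (33.3% and 8.33%), where 17% and 18.7% of all genes did. Within the slide 8 were above 0 and 4 below. Ids, the iduronate sulfatase, differed by 0.55 ± 0.17 (adjusted p = 0.0968). Of 16 genes for hyaluronan binding, uptake or cleavage, 8 were tested and 0 passed. Versican, Vcan, a large chondroitin sulfate proteoglycan that binds hyaluronan, differed by -1.47 ± 0.44 (adjusted p = 0.0935) and the link protein gene Hapln3 by 0.59 ± 0.20 (adjusted p = 0.112). Blocked on the replicate number, 2 of these 8 were called lower, where 1.65% of all genes were. The 2 were Vcan (adjusted p = 0.0391) and Tnfaip6, whose product cross-links hyaluronan in inflammation (adjusted p = 0.0488, change -1.41). Core proteins that carry the chains had 2 of 17 called lower and 0 higher, where 2.43% and 2.77% of all genes were. With groups apart, 4 of the 17 lay higher and 6 lower (23.5% and 35.3%), where the background was 17% and 18.7%. Within the slide 9 of the 17 were above 0 and 8 below. The glypican gene Gpc1 was at 1.76 there (1.12 with all arrays, adjusted p = 0.0950). The syndecan gene Sdc4 was at -2.31 there (-1.48 with all arrays, adjusted p = 0.0835, and 0.0403 blocked on the replicate number). Perlecan, Hspg2, a heparan sulfate proteoglycan of basement membranes, lay at 3.62, 3.63 and 3.58 in rhTM hearts, against 4.71, 4.67 and 4.33 in saline hearts, and fell by 0.96 ± 0.19 (1.94-fold lower in rhTM hearts, adjusted p = 0.0433; within the slide -0.72, adjusted p = 0.0612; 0.0561 blocked on the replicate number). Sdc1, a syndecan of the cell surface, lay at -2.93, -2.73 and -2.21 in rhTM hearts, against -0.75, -1.28 and 0.28 in saline hearts. It fell by 2.04 ± 0.43 (4.12-fold lower in rhTM hearts, adjusted p = 0.0478) and also passed within the slide (-2.91, adjusted p = 0.0263) and blocked on the replicate number (adjusted p = 0.0404).

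**Figure D4:**
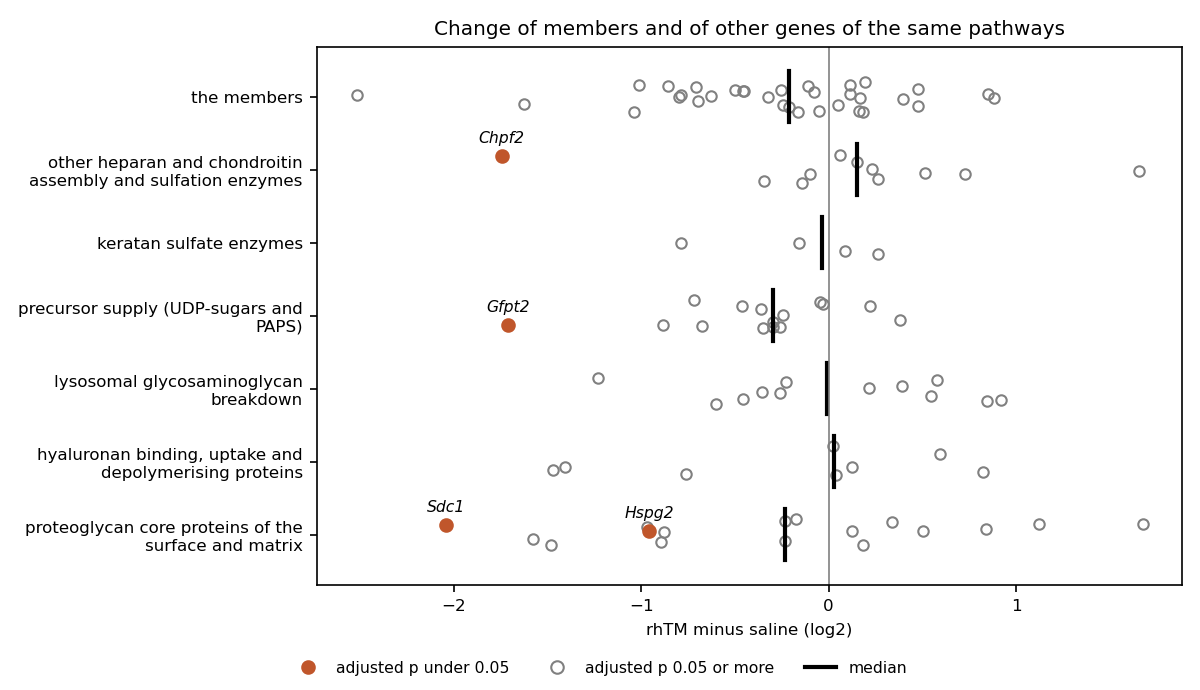
Change of each tested gene (circles, rhTM minus saline on a log2 scale) for the 33 members and for 6 lists of other genes of the same pathways, with the median of each as a bar and filled circles for genes at an adjusted p under 0.05. The filled circles are Chpf2, Gfpt2, Hspg2 and Sdc1, all below 0, and no member is filled.

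The tissue matched its label, since all 6 cardiomyocyte markers were well above background on all arrays. Their summed level was higher in rhTM hearts, with 11.10 to 11.58, against 10.57 to 11.03 in saline hearts, and 0 of 6 passed the test. Endothelial markers summed to 6.31 to 6.48 in rhTM hearts and 6.47 to 6.72 in saline hearts. Fibroblast markers summed to 7.59 to 8.09 in rhTM hearts and 7.59 to 7.72 in saline hearts, with Dcn the brightest. In either list 0 of 6 were called. Of the fibroblast markers 2 lay above 0 and 4 below. Lum differed by 1.22 ± 0.27 (limma adjusted p = 0.0543) and Pdgfra by -1.10 ± 0.27 (adjusted p = 0.0664), both with groups apart. Blocked on the replicate number, Lum was called higher (adjusted p = 0.0431), where 2.43% of all genes were. Macrophage markers overlapped, with 4.43 to 5.03 in rhTM hearts and 4.20 to 4.999 in saline hearts. Mural cell markers, of pericytes and smooth muscle, differed among themselves. Their summed level was 5.78 to 5.99 in rhTM hearts, against 6.44 to 7.07 in saline hearts. Of the 5, 3 lay higher with groups apart, where 17% of all genes did, and the median change was 0.44. Among the 5, Acta2 was called lower (-1.55 ± 0.24, limma adjusted p = 0.0323) and Rgs5 higher (1.21 ± 0.24, adjusted p = 0.0443). Within the slide neither passed (adjusted p 0.0605 and 0.0895), and Rgs5 did not pass blocked on the replicate number (adjusted p = 0.0608). T and NK cell, B cell and mesothelial markers had 0 called, with 3 of 6 T and NK cell and 1 of 4 B cell markers at background on all arrays. The part of any of these cell types in the members' values was not tested.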

How the data were processed

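Whole-heart RNA was measured on 6 1-colour Agilent arrays. Each deposited scanner file gives spot intensity, made with Agilent Feature Extraction 10.7.3.1 per the file headers (the submitters' processing notes name version 9.1); gProcessedSignal is background-corrected and not normalized between arrays. A second deposited table gives log2 values of the same arrays; its baseline and centring stay unknown, and it served only as an alternative. Groups came from the sample titles. Control spots were dropped, as were 368 of 56605 probes for outlier flags, spots of a probe were averaged, and 32784 probes were named by accession through RefSeq (GRCm38.p6), while 23453 had no symbol. The brightest probe by mean signal stood for its gene, which was tested if this probe exceeded background clearly (the scanner's well-above-background mark) on all 3 arrays of either group. The test was limma (version 3.58.1, R 4.3.3, lmFit and eBayes with group as the only term) with Benjamini-Hochberg adjustment over all genes tested, after a check on simulated data. The simulated noise was independent between genes and held no slide difference, so the check does not cover the slide layout of these arrays. P-values measure the spread between these arrays, which in the saline group mixes mouse with slide and scan.

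The members and lists were chosen with earlier results of these data known. Named genes are any member, with all arrays given for the 15 members with the smallest p, those whose probes disagreed and a few chosen after their values were seen, and of each other list its called genes or the 2 with the smallest p (Tnfaip6, Uap1, Gpc1, Sdc4, Acta2, Rgs5, Csf3r and Dcn were added after their values were seen). Slc35b2 and Ly6g were among the listed genes with no named probe, and some listed genes are not reported here. No gMeanSignal column exists in the files, so the normexp alternative used gMedianSignal. Same-numbered arrays deviated together from their group means (correlations 0.319, 0.235 and 0.372 across genes), but rhTM 2 and saline 1 did so too (0.314), and the labels name no shared litter or day, so the pairing, though used as a block in an alternative fit, rests on the data alone. Alternatives were other scalings, filters, probe rules, blocks, weights and left-out arrays. Precision is limited by there being 3 arrays a group.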

Additional observations from a re-analysis of the deposited data

How the results depend on the processing

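The absence of calls among the members held with median centring, with no filter on dim probes, with the mean of all probes of a gene and with normexp and quantile scaling. Over all 14697 genes tested, median centring called 483 higher and 268 lower, and the mean of all probes 355 and 273. Normexp and quantile scaling called 364 higher and 493 lower. Calls appeared in other fits. With array weights 6 members were called higher and 17 lower, where 4662 and 4579 of 14697 genes were called. Without mouse 3 of either group it was 6 and 15, where 26.8% and 26.3% of all genes were called. By the deposited values it was 0 and 7, where 2205 and 2313 genes were called, and blocked on slide 1 and 4. In the fit with a replicate block, and with the filter set to all 6 arrays, 1 member was called lower (Chst11) and none higher. The replicate block changed no other member's call. It called 357 genes higher and 242 lower in all, and the filter on all 6 arrays gave 307 and 358. Leaving out each array in turn gave 0 to 4 members higher and 0 to 9 lower, the most without saline 3, where the median change was -0.40 (range -0.40 to -0.18). With array weights the median was -0.43. Over all genes, the fit with no filter called 132 higher and 19 lower of 22811. Of 14697 genes, the fit without mouse 3 of either group called 3946 and 3870. Single left-out arrays gave 0 to 3006 and 0 to 2806 (none without rhTM 1, the most without saline 3). With 2 arrays against 2 the fit rests on mice 1 and 2, whose saline arrays are all on slide 1. Without rhTM 3, 2 members were called lower (Chst11 and Has1), where 512 of 14697 genes were called lower. The cause of these shifts was not tested.

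Members took the other sign in some fits, among them some with sizeable changes (Chst3 at -1.04, Hs3st1 at 0.85, Sulf2 at -0.63). Against saline 3 these were Ext1 (0.12), Extl1 (1.05), Extl2 (0.14), Hs2st1 (0.17), Hs6st2 (-0.97), Xylt2 (0.31), Has2 (-1.22), Hpse (-0.12), Cd44 (-1.29), Sulf2 (0.20), Chst3 (0.22), Chst12 (-0.44), Chst15 (0.19) and Csgalnact2 (-0.59). With the deposited table they were Extl1 (0.60), Hs2st1 (0.23), Hs3st1 (-0.032), Hs6st2 (-0.10), Xylt2 (0.22), Has2 (-0.67), Hpse (-0.14), Cd44 (-1.19), Chst1 (0.24), Chst12 (-0.21), Chst15 (0.014) and Csgalnact2 (-0.41). The mean of all probes turned Extl1 (0.068), Ndst1 (0.24), Hs2st1 (0.15), Hpse (-0.069) and Cd44 (-0.45), normexp turned Hs6st2 (-0.10), Has2 (-0.12), Hyal1 (-0.12) and Cd44 (-0.0010), and median centring turned Extl1 (0.030) and Xylt2 (0.0049). Hyal1 was at -0.48 with array weights and -0.49 without mouse 3. Single left-out arrays gave ranges of -0.60 to 0.43 for Extl1, -0.22 to 0.78 for Hs6st2, -0.27 to 0.052 for Xylt2, -0.33 to 0.78 for Has2, -0.63 to 0.54 for Hyal1, -0.44 to 0.72 for Cd44, -0.084 to 0.47 for Chst12 and -0.018 to 0.57 for Csgalnact2. The adjusted p of Chst11 ranged from 0.000332 to 0.225 and that of Has1 from 0.00167 to 0.240 over their alternatives. That of Xylt1 ranged from 0.000308 to 0.853.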
